A study of Rattus norvegicus with 13 samples.

Results

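The genes described here are 10 secreted components of the extracellular matrix that are not collagens: *Fn1*, *Eln*, *Fbn1*, *Sparc*, *Postn*, *Tnc*, *Thbs2*, *Dcn*, *Lum* and *Bgn*. They were chosen by name, as a list of gene symbols, with earlier results of these data known. All 10 were found among the 14790 genes of the expression table. RNA-seq was performed on mammary epithelial cells of Wistar-Furth rats, 6 of them 6 weeks old and within the window of susceptibility to mammary cancer (within WOS), and 7 of them 10 weeks old and outside this window (outside WOS). The cells came from abdominal and inguinal glands, freed of lymph nodes, digested with collagenase and passed over a nylon filter meant to hold back fragments of ducts and let stromal cells through. The preparation is enriched for epithelium, not pure, and by the paper's account it also holds fibroblasts of the stroma and cells of the immune system. Each library stems from its own rat, and no treatment or genetic change is given for either age.

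The matrix that surrounds mammary ducts is a mesh of fibres, adhesive glycoproteins and proteoglycans. Fibronectin binds integrins on cells and is assembled into fibrils on which other matrix proteins are laid down. Fibrillin microfibrils carry elastin and hold latent TGF-beta, while the small leucine-rich proteoglycans bind collagen fibrils and set their spacing. Matricellular proteins such as periostin, tenascin C, SPARC and the thrombospondins modulate how cells attach and respond to growth factors, and several of them are known to be abundant where tissue grows or is remodelled. In the mammary gland most of these genes are known as products of fibroblasts.

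Promoter sequences of the rat assembly GRCr8 from RefSeq, spanning 250 bases before to 50 after the start site, were at hand for 5 of the 10 genes, namely *Fbn1*, *Sparc*, *Postn*, *Tnc* and *Lum*. The promoters of *Postn*, *Lum* and *Sparc* are given from 5′ to 3′ in the direction of the gene. *Postn* and *Lum* had the 2 highest fold changes between the ages. All 5 genes were higher within WOS in the comparison that follows, so this does not set the 3 apart from *Fbn1* and *Tnc*. Capitals mark matches on either strand to a TATA box (TATAAA), an AP-1 element (TGANTCA), a GC box (GGGCGG) or a SMAD element (CAGAC), and no matches overlapped each other.
Postn, chr2:140677811-140678110, plus strand: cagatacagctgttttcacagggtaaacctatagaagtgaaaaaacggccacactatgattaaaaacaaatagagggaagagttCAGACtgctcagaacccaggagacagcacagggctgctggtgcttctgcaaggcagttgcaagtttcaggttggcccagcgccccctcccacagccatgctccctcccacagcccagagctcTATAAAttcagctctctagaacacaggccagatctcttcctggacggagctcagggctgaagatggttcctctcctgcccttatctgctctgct
Lum, chr7:34245456-34245755, plus strand: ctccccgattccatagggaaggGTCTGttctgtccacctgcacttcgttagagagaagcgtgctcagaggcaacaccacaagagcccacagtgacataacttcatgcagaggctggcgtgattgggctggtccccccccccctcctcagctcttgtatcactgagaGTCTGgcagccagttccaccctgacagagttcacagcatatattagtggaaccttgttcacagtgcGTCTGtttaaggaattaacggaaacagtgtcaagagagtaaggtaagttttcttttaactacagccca
Sparc, chr10:40038767-40039066, minus strand: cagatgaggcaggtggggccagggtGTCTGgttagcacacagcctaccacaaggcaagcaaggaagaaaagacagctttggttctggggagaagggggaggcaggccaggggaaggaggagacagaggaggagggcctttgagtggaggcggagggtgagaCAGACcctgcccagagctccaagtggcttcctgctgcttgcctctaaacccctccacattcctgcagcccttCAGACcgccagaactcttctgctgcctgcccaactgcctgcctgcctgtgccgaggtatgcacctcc

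The *Postn* promoter held a TATA box whose first base lies at -44 from the start site and 1 SMAD element. *Lum* and *Sparc* each held 3 SMAD elements and no TATAAA match. All 5 promoters held at least 1 SMAD element, a short motif that 50.1% of the 33469 promoters of the same length in the RefSeq table also hold. TATAAA, found in *Postn* and *Tnc*, occurs in 14.2% of promoters, the GC box, found in *Tnc*, in 33.1%, and the AP-1 element, found in none of the 5, in 7.33%. GC content was 52.0% in *Postn*, 50.7% in *Lum* and 61.0% in *Sparc*, against 70.7% with 28 CpG sites in *Fbn1*. These matches describe the sequence and say nothing of a factor bound there.

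Expression is given as normalized counts, that is RSEM counts per gene which the authors scaled for each library and deposited rounded to whole numbers. Their total per rat ran from 13261906 to 15659533 within WOS, against 13766735 to 15402814 outside WOS. Rat 86 at 6 weeks stood apart, its most abundant gene taking 27.9% of the counts against at most 21.2% in the other rats, and its mean log2 values of 9.89 over basal and 9.73 over luminal epithelial markers being the lowest of the 13 rats. The lowest value of any of the 10 genes in any rat was 323, so no result on them rests on low counts. For the comparison of the ages, limma was fitted to log2(normalized count + 1) of all 14790 genes, and a gene is called differentially expressed (DE) at a Benjamini-Hochberg adjusted p under 0.05. Log2 fold changes are 6 weeks over 10 weeks, so that values above 0 stand for higher expression within WOS.

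Of the 10 matrix genes, 8 were DE and higher within WOS, where 8.71% of all genes tested were DE in that direction. Because the list was chosen with earlier results of these data known, the shares given here describe it and do not test for enrichment. None of the 10 was DE and higher outside WOS, nor had an unadjusted p under 0.05 in that direction in limma, against 7.39% of all genes that were DE that way. The same 8 genes did not overlap between the ages, every rat at 6 weeks lying above every rat at 10 weeks, as was the case for 3.29% of all genes. Without rat 86 these 8 genes were DE as well, with log2 fold changes from 0.80 for *Bgn* to 1.99 for *Eln*. The opposite order without overlap, found for 2.78% of all genes, occurred for 0 of the 10. The median log2 fold change of the 10 genes was 1.43, against 0.028 for all genes tested. Summed over the 10 genes, their share of a library's normalized counts was 0.646% to 1.10% within WOS (median 0.95%) and 0.171% to 0.392% outside WOS (median 0.286%).

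**Figure D1:**
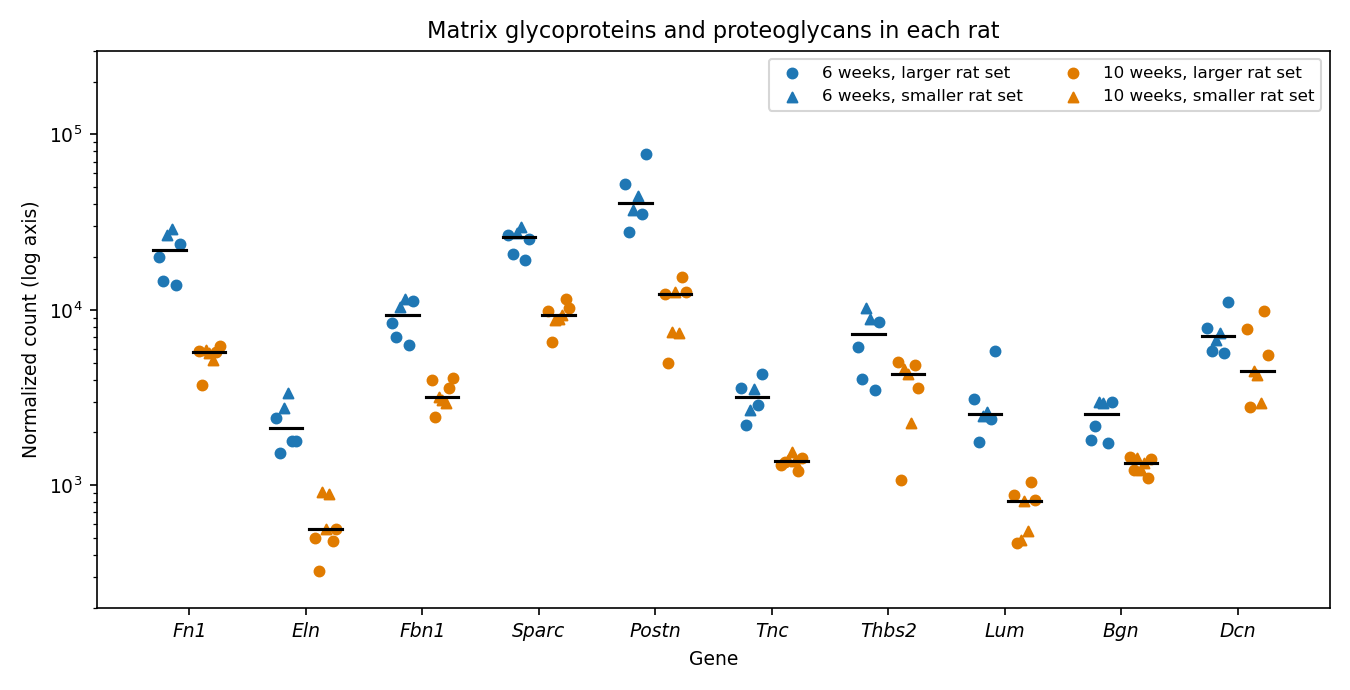
Normalized counts on a log axis for each of the 10 matrix genes, 1 point per rat, with 6 rats at 6 weeks in blue and 7 rats at 10 weeks in orange; black lines are medians, and circles and triangles mark the larger and smaller set of rats found in the variation within ages. The ages do not overlap for 8 genes, while points of both ages share a range for *Thbs2* and *Dcn*.

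*Fn1* (ENSRNOG00000014288) encodes fibronectin, the adhesive glycoprotein that cells assemble into fibrils. It ran from 13863 normalized counts through a median of 21879 to 29055 within WOS, and from 3723 through 5730 to 6242 outside WOS. The lowest rat within WOS thus had more than 2 times the count of the highest rat outside WOS. With a log2 fold change of 1.93 (SE, the standard error, 0.19; limma adjusted p = 0.000113), or 3.81-fold, it ranked 22 of 14790 by p. Rats 75 and 80 had the highest counts at 6 weeks, with 26820 and 29055.

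The 2 elastic fibre genes were both higher within WOS. *Eln* (ENSRNOG00000001469), which encodes the elastin core of the fibre, ranged from 1523 to 3338 within WOS with a median of 2115. Outside WOS it ranged from 323 to 917 with a median of 560, so the groups were well apart. Its log2 fold change was 1.94 (SE 0.26, adjusted p = 0.000468). *Fbn1* (ENSRNOG00000007302) encodes fibrillin 1, the main protein of the microfibrils onto which elastin is deposited. Its median was 9383.5 within WOS, with rats from 6337 to 11466, and 3199 outside WOS, with rats from 2436 to 4102. The log2 fold change of *Fbn1* was 1.44 (SE 0.17, adjusted p = 0.000262), or 2.71-fold.

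Among the matricellular genes, *Postn* (ENSRNOG00000012660) had the highest fold change of the 10 genes. It encodes periostin, which links collagen, fibronectin and tenascin C and binds integrins. Within WOS it ran from 27766 through a median of 40730.5 to 77678, and outside WOS from 4947 through 12355 to 15353. Rat 86 was the highest at 6 weeks and rat 74 the lowest at 10 weeks. The log2 fold change was 2.15 (SE 0.29, adjusted p = 0.000523), or 4.45-fold.

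*Sparc* (ENSRNOG00000012840), a collagen-binding glycoprotein that limits cell spreading, varied least between rats within WOS, with a coefficient of variation of 16.3%. It ran from 19200 to 29653 within WOS (median 26003) and from 6596 to 11598 outside WOS (median 9381). Its log2 fold change of 1.42 (SE 0.15, adjusted p = 0.000124) corresponds to 2.67-fold. *Tnc* (ENSRNOG00000058645) encodes tenascin C, a hexameric glycoprotein that weakens the adhesion of cells to fibronectin. Its 7 rats outside WOS were close together, from 1208 to 1539 (median 1378, coefficient of variation 7.64%), and the 6 rats within WOS spread from 2208 to 4308 (median 3204.5). The log2 fold change of *Tnc* was 1.19 (SE 0.14, adjusted p = 0.000262).

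*Thbs2* (ENSRNOG00000010529), which encodes thrombospondin 2, an inhibitor of angiogenesis that also affects collagen fibril assembly, was not DE. It ran from 3492 through 7290 to 10268 within WOS and from 1066 through 4296 to 5049 outside WOS. The ages overlapped, 4 of the 6 rats at 6 weeks lying above all rats at 10 weeks and rats 71 and 84 lying among them. The log2 fold change of 0.95 (SE 0.38, 95% interval 0.12 to 1.78) had an unadjusted p of 0.0279 and an adjusted p of 0.109 in limma. A change as large as that of *Fbn1* lies within this interval, so the data do not show that *Thbs2* stayed level.

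Of the 3 small leucine-rich proteoglycans, *Lum* and *Bgn* were DE and *Dcn* was not. *Lum* (ENSRNOG00000004610) encodes lumican, a keratan sulphate proteoglycan that regulates collagen fibril diameter. It ran from 1768 through 2546 to 5862 within WOS and from 467 through 809 to 1040 outside WOS, with a log2 fold change of 2.02 (SE 0.27, adjusted p = 0.000492). Rat 86, with 5862, was well above the next highest rat of its age, which had 3118, and without it the log2 fold change was 1.81. *Bgn* (ENSRNOG00000055962) encodes biglycan, which carries chondroitin or dermatan sulphate chains. It ran from 1732 through 2558 to 2973 within WOS and from 1097 through 1345 to 1440 outside WOS, with no overlap. Its log2 fold change of 0.86 (SE 0.15, adjusted p = 0.00312) was the smallest among the DE genes of the list.

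*Dcn* (ENSRNOG00000004554) encodes decorin, the closest relative of biglycan in the family and a binding partner of collagen and TGF-beta. It ran from 5665 through 7073.5 to 11083 within WOS and from 2795 through 4483 to 9882 outside WOS. Rats 72 and 85 at 10 weeks, with 7770 and 9882, lay among the rats at 6 weeks, and rat 86 alone exceeded all 7 of them. *Dcn* had a log2 fold change of 0.57 (SE 0.29, 95% interval -0.057 to 1.20, adjusted p = 0.197), which did not pass the threshold. The coefficient of variation outside WOS was 48.5%, the highest of the 10 genes at that age.

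*Dcn* and *Lum* are adjacent protein-coding genes on chromosome 7 of GRCr8, and their ratio within each rat was compared between the ages. The log2 ratio of *Dcn* to *Lum* ran from 0.92 to 1.72 within WOS, against 2.38 to 3.25 outside WOS, without overlap. The difference of -1.45 (SE 0.18) had p = 0.00117 in a two-sided exact permutation test over the 13 rats, the smallest p this test can give. It was 1 of 10 ratios compared, each between genes of a like role, and its p adjusted over these was 0.00932. These 10 ratios were not among the planned comparisons, and they use the same 13 rats as the fold changes above. A ratio within a library does not depend on how the library was scaled. *Lum* also moved more than *Bgn*, the log2 ratio of the 2 being 0.25 ± 0.56 in the 6 rats within WOS (mean ± SD), against -0.91 ± 0.52 in the 7 outside WOS (exact permutation test, adjusted p = 0.00932). *Dcn* and *Bgn* were not told apart, with a difference of -0.29 (SE 0.31, adjusted p = 0.451, exact permutation test).

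Among the matricellular genes, *Postn* moved more than each of the other 3. Its log2 ratio differed between the ages by 0.96 against *Tnc* (SE 0.25), by 0.74 against *Sparc* (SE 0.24) and by 1.20 against *Thbs2* (SE 0.30), each with an adjusted p of 0.00932 in the exact permutation test. The ratios of *Tnc* to *Sparc*, *Tnc* to *Thbs2* and *Sparc* to *Thbs2* did not pass the threshold, with adjusted p from 0.226 to 0.572. The ratio of *Eln* to *Fbn1* gave a difference of 0.50 (SE 0.25, adjusted p = 0.138, exact permutation test). The 5 ratios under the threshold remained under it in all 13 repeats that each left out 1 rat.

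**Figure D2:**
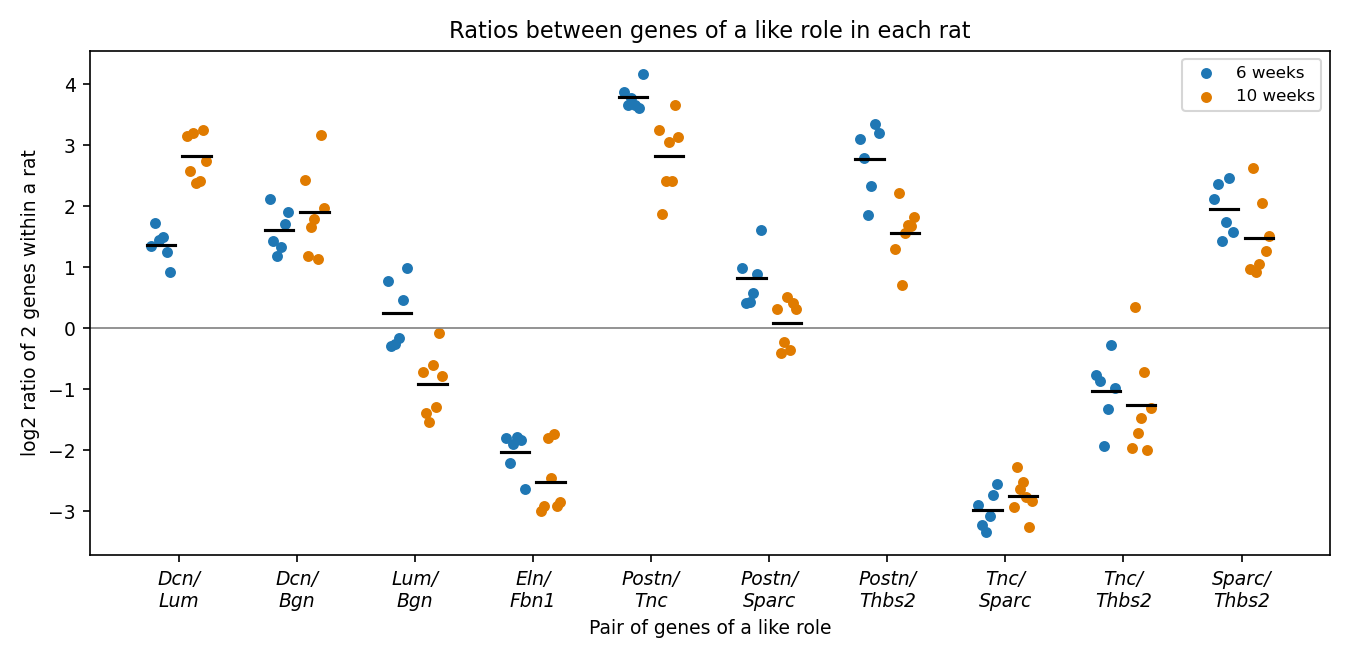
Log2 ratio of 2 genes of a like role within each rat, 6 rats at 6 weeks in blue and 7 rats at 10 weeks in orange, with black lines at the means. The ratio of *Dcn* to *Lum* separates the ages without overlap, from 0.92 to 1.72 against 2.38 to 3.25.

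The rats also differed among themselves at each age. At 6 weeks rat 86 had the highest value for 5 of the 10 genes and rat 80 for 4, while rat 84 had the lowest for 6 and rat 71 for 4. At 10 weeks rat 74 had the lowest value for 8 of the 10 genes, the exceptions being *Tnc* and *Bgn*. With age means subtracted, the Pearson r of log2 values between 2 of the 10 genes had a median of 0.57 over the 45 pairs, computed over the 13 rats that share these libraries and their scaling. *Postn* and *Lum* had the highest value, 0.95, followed by *Fn1* and *Fbn1* with 0.93. The values of *Eln* ran from -0.11 against *Lum*, -0.060 against *Dcn* and 0.069 against *Postn* to 0.51 against *Thbs2*, 0.53 against *Sparc* and 0.64 against *Fn1*. *Bgn* was likewise low against *Postn*, *Dcn* and *Lum*, with 0.14, 0.14 and 0.18, and reached 0.72 against *Fn1*. These values describe the 13 rats and carry no test.

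The 5 genes outside the list whose values followed the mean of the 10 genes most closely in the same sense, among 10734 with a mean of at least 50, were *Lhfpl2* (0.95), *LOC102547056* (0.95), *Pdgfra* (0.94), *Svep1* (0.93) and *Bicc1* (0.93). *Pdgfra* is the receptor by which fibroblasts are commonly marked, and *Svep1* encodes a large matrix-associated adhesion protein. *Lhfpl2* had a log2 fold change of 0.80 (adjusted p = 0.0124) and *LOC102547056* of 1.13 (adjusted p = 0.0125), whereas *Pdgfra* with 0.13 (adjusted p = 0.78), *Svep1* with 0.69 (adjusted p = 0.142) and *Bicc1* with 0.34 (adjusted p = 0.281) did not pass the threshold.

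Fibroblast markers were also higher within WOS in part. A list of 10 fibroblast markers, none of them a matrix gene, held 3 that were DE and higher within WOS, namely *Fap* with a log2 fold change of 2.19, *Thy1* with 1.09 and *Cd34* with 0.67, and 0 higher outside WOS. Of all genes, 8.71% and 7.39% were DE in these directions. All 10 had a log2 fold change above 0, with a median of 0.58. Their summed level ran from 2460 to 4358 within WOS, against 1347 to 3070 outside WOS, so the ages overlapped, and no marker was at 0 in all rats. With the mean log2 value of these markers as a covariate, limma called 4 of the 10 matrix genes, all higher within WOS: *Fn1* (log2 fold change 1.30, adjusted p = 0.0121), *Sparc* (0.96, adjusted p = 0.0151), *Fbn1* (0.91, adjusted p = 0.0383) and *Tnc* (0.98, adjusted p = 0.0468). *Postn* had 1.15 (adjusted p = 0.056), *Eln* 1.49 (adjusted p = 0.0773), *Lum* 1.26 (adjusted p = 0.0814) and *Bgn* 0.68 (adjusted p = 0.21). *Dcn* and *Thbs2* turned below 0, with -0.29 and -0.49, neither passing the threshold. In that fit 123 genes of the whole table were DE and higher within WOS and 65 higher outside WOS, against 1288 and 1093 without the covariate. The marker score itself averaged 7.44 ± 0.29 in the 6 rats within WOS (mean ± SD), against 6.72 ± 0.38 in the 7 outside WOS, so age and score share variation in this fit. In bulk RNA a larger number of cells of a type and more RNA per cell cannot be told apart.

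Other cell types were checked in the same way. Of 8 pericyte and smooth muscle markers 4 were DE and higher within WOS (*Abcc9*, *Pdgfrb*, *Mcam* and *Cspg4*), where 8.71% of all genes were DE in that direction. The other 4 were not DE, with log2 fold changes from 0.12 for *Des* to 0.75 for *Notch3*. The summed level of the 8 ran from 6315 to 9360 within WOS, against 3768 to 5646 outside WOS. The contractile genes *Acta2*, *Myh11* and *Cnn1*, counted here as basal markers, had log2 fold changes of -0.44, -0.34 and -0.46. The other 5 basal markers were above 0. Of 5 adipocyte markers 2 were higher within WOS, *Adipoq* and *Plin1*, both at low counts of at most 56. With a pseudocount of 0.1 neither of them was DE. The summed level of the 5 overlapped, with 1645 to 2492 within WOS and 1799 to 2881 outside WOS. Most of this sum was *Fabp4*, with means of 1744.7 and 1888. The mean log2 value of the 5 did not overlap, with 6.12 to 7.03 within WOS and 5.00 to 6.04 outside WOS. None of 7 endothelial and none of 7 macrophage markers was DE. The summed level of 8 luminal markers was 21157 to 46666 over all rats and that of 8 basal markers 19012 to 36958. Single markers differed in level. In the luminal list *Krt8* ran from 6486 to 17432 over all rats and *Foxa1* from 26 to 128. In the basal list *Krt14* ran from 1707 to 4864 and *Oxtr* from 14 to 81, and the contractile genes *Myh11* and *Acta2* had the highest means. In each of these 2 epithelial lists 1 of 8 genes was DE, *Epcam* and *Cnn1*, both higher outside WOS, as were 7.39% of all genes. With library size scaling neither list held a DE gene in that direction. Whether a shift between these cell types contributes to the matrix genes was not tested.

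**Figure D3:**
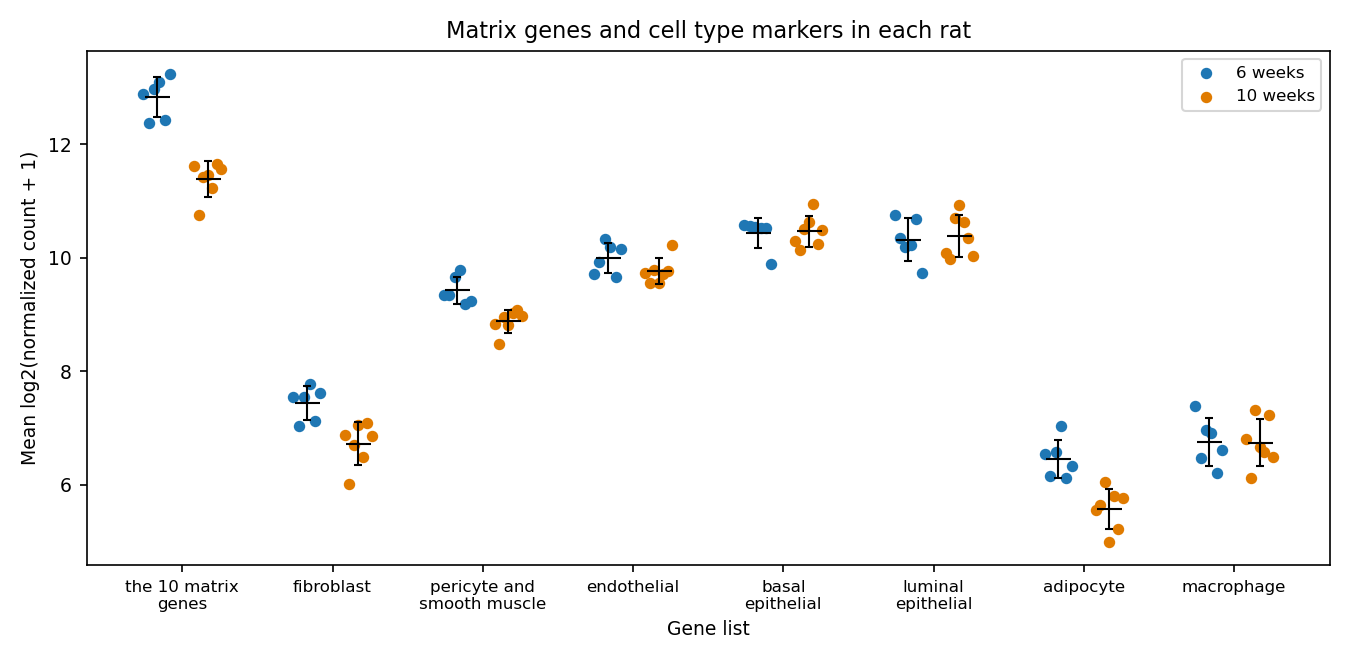
Mean of log2(normalized count + 1) over the 10 matrix genes and over the markers of 7 cell types, 1 point per rat at 6 weeks (blue, n = 6) and 10 weeks (orange, n = 7), with mean and SD in black. The matrix genes lie at 12.83 ± 0.35 and 11.38 ± 0.31, and the fibroblast markers at 7.44 ± 0.29 and 6.72 ± 0.38. The ages overlap for the fibroblast, endothelial, macrophage and both epithelial lists. They do not overlap for the matrix genes, the pericyte and smooth muscle list and the adipocyte list.

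The first component of the variation left within the ages, 28.3% of it, parts the rats into a larger set of 8 (4 of each age) and a smaller set of 5 (rats 75 and 80 at 6 weeks, rats 78, 81 and 83 at 10 weeks). The labels give no reason for this split, but the rat numbers follow it, the smaller set holding every number from 75 to 83 and the larger set those from 70 to 74 and from 84 to 87. What else the rats of a run of numbers share is not given in the sources used here. In the larger set alone the same 8 matrix genes were DE, with adjusted p from 0.00116 to 0.0314 in limma. They were higher within WOS, as were 2003 of the 14774 genes tested in that set. In the smaller set none passed the threshold in limma (adjusted p from 0.112 to 0.29), nor did any of the 14770 genes tested there. All 10 had an unadjusted limma p under 0.05 and a log2 fold change above 0. In that fit 1976 of the 14770 genes had such a p, counted over both directions. *Fn1* had 1.74 in the larger set and 2.33 in the smaller one, *Fbn1* 1.22 and 1.83, *Postn* 2.10 and 2.19, *Lum* 1.94 and 2.08, and *Eln* 2.02 and 1.98. *Dcn* had 0.32 and 0.89, and *Thbs2* 0.74 and 1.42. In 13 fits that dropped single rats, the 8 genes were DE and *Dcn* and *Thbs2* were not DE in every fit.

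**Figure D4:**
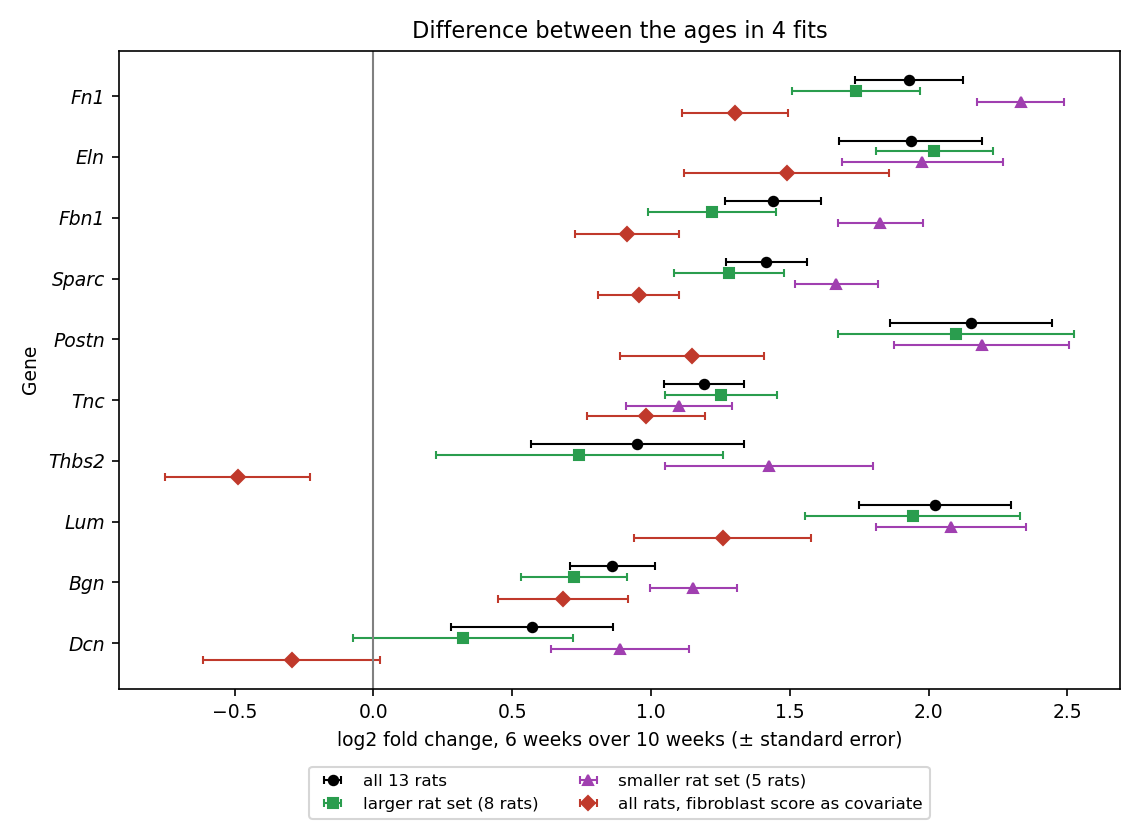
Log2 fold change of 6 weeks over 10 weeks with its SE for each of the 10 matrix genes, in the fit of all 13 rats, in each rat set alone and with the fibroblast marker score as a covariate. In the fits of all rats and of each set every gene lies above 0, and with the covariate *Thbs2* and *Dcn* lie below it.

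To place the 10 genes among their relatives, 46 further genes of the matrix outside the collagens were taken from 4 lists. Among them 12 were DE towards higher levels within WOS and 3 towards higher levels outside WOS, where 8.71% and 7.39% of all genes were DE in these directions, and the median log2 fold change was 0.28. The 3 genes higher outside WOS are thus close to the share among all genes. The elastic fibre and microfibril list had the highest median of the 4, 0.62, with 6 of 15 genes DE, all higher within WOS. *Mfap5*, a microfibril-associated glycoprotein, ran from 168 to 348 within WOS, against 31 to 84 outside WOS (log2 fold change 2.19, SE 0.26, adjusted p = 0.000221). Its relative *Mfap2* had 2.14 (SE 0.47, adjusted p = 0.0099), with 2 of the 6 rats at 6 weeks within the range of the rats at 10 weeks. *Emilin2*, a glycoprotein at the interface of elastin and microfibrils, had 1.18 (adjusted p = 0.0179). The other DE genes of the list were *Fbn2*, *Fbln5* and *Efemp2*, and the 4 latent TGF-beta binding proteins *Ltbp1* to *Ltbp4* did not pass the threshold.

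Of 9 other small leucine-rich proteoglycans, 2 were DE, both higher within WOS, where 8.71% of all genes were DE in that direction. The median log2 fold change of the 9 was -0.040. *Aspn*, which encodes asporin, ran from 129 to 309 within WOS, against 23 to 122 outside WOS (log2 fold change 1.65, SE 0.43, adjusted p = 0.0231). *Ogn*, or osteoglycin, had 0.91 (adjusted p = 0.0456) and lost its call in 9 of 13 fits when single rats were dropped. The remaining 7, *Fmod* and *Prelp* among them, had log2 fold changes from -0.78 to 0.48.

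The matricellular list held 2 of 15 genes that were DE and higher within WOS and 3 that were DE and higher outside WOS. Of all genes, 8.71% and 7.39% were DE in these directions. Within the thrombospondin family, *Thbs1* ran from 97503 to 138520 normalized counts within WOS and from 185478 to 265106 outside WOS, without overlap. Its log2 fold change of -0.97 (SE 0.12, adjusted p = 0.000318) was opposite in sign to that of *Thbs3*, which had 1.73 (SE 0.18, adjusted p = 0.000121) and ran from 226 to 406 within WOS, against 67 to 141 outside WOS. *Thbs1* encodes the thrombospondin that platelets release and that can activate latent TGF-beta. *Ccn2* with -0.70 (adjusted p = 0.0106) and *Ccn1* with -0.42 (adjusted p = 0.0099), listed in the table as *Ctgf* and *Cyr61*, encode CCN family proteins and were also higher outside WOS. *Smoc2*, a relative of SPARC and the coding gene next to *Thbs2* in GRCr8, was higher within WOS with 1.01 (adjusted p = 0.0199), but was not DE without rat 70 (adjusted p = 0.0512).

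Of 7 large proteoglycans and hyaluronan link proteins, 2 were DE and both higher within WOS, where 8.71% of all genes were DE in that direction. *Vcan*, which encodes versican, the hyaluronan-binding proteoglycan of loose stroma, ran from 4299 to 8225 within WOS, against 2025 to 5220 outside WOS. Its log2 fold change was 0.94 (SE 0.21, adjusted p = 0.0106), and only rat 81 at 10 weeks, with 5220, reached into the range of the rats at 6 weeks. *Bcan* had 1.40 (adjusted p = 0.0198) at low counts, from 7 to 27 within WOS, against 3 to 12 outside WOS.

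**Figure D5:**
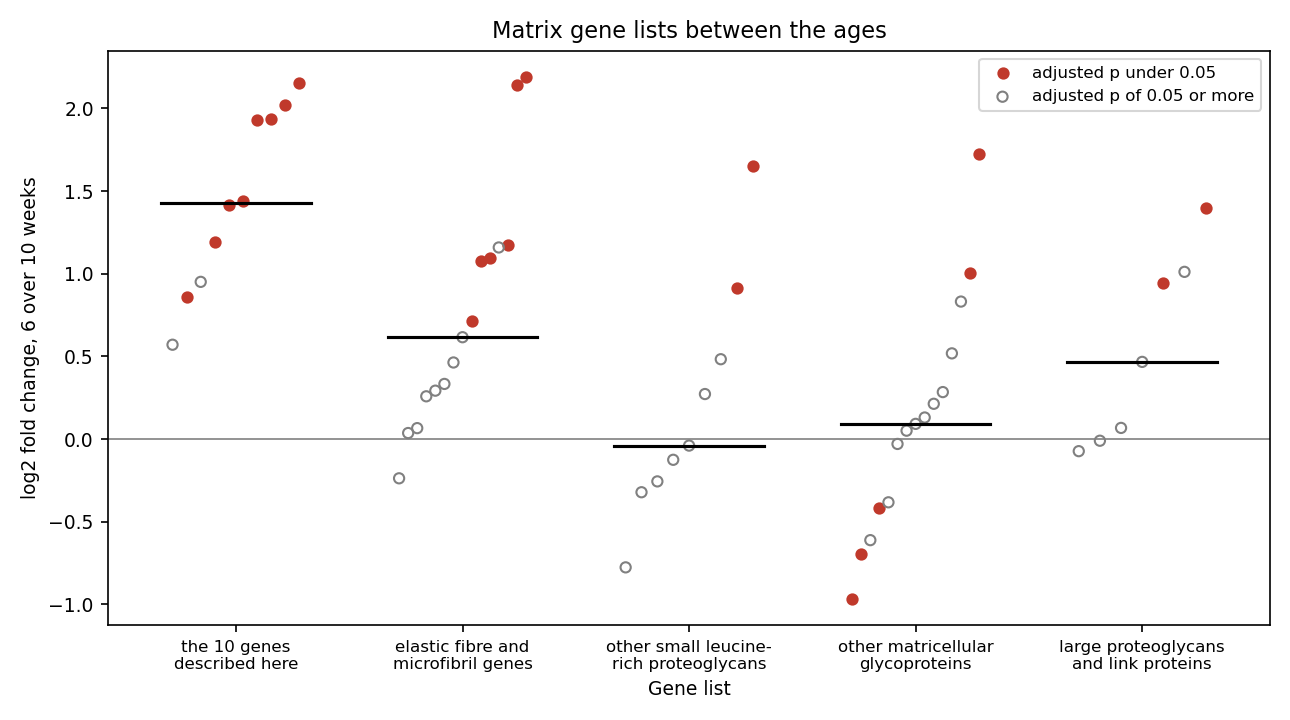
Log2 fold change of 6 over 10 weeks for the 10 matrix genes and 4 lists of related matrix genes, 1 point per gene, filled red where the adjusted p is under 0.05; black lines are medians. The medians are 1.43 for the 10 genes, 0.62 for elastic fibre and microfibril genes and -0.040 for the other small leucine-rich proteoglycans, and 3 matricellular genes are DE below 0.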

How the data were processed

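Mammary epithelial cells of 13 rats were profiled by RNA-seq. The authors counted reads per gene with RSEM 1.2.22, scaled each library and deposited whole numbers, whose unit is taken as a score, here called normalized counts; in 7 rats some whole numbers from 1 to 30 never occur, as scaling of counts leaves gaps. The submitters' notes name rn5, and the scaling method is not given in the sources used here. Columns of the authors' own edgeR test in the deposited file (among them log2 fold change, a likelihood ratio score, p-value and signed −log10 p) were not used.

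Groups were taken from the labels. R 4.3.3 and limma 3.58.1 served to fit log2(normalized count + 1) of all 14790 genes, each with a mean of at least 1, two-sided, with Benjamini-Hochberg adjustment and no covariate. The fit was tested on simulated data. Ratios were compared with exact permutation tests (scipy 1.17.1). The gene lists and the 10 genes were chosen with earlier results of these data known. Related genes named are up to 3 per list and direction with the largest change among DE genes, and other names follow their counts in the text. Of 58 related genes 46 were in the table, and 10 of 11 fibroblast, 7 of 8 endothelial and 5 of 7 adipocyte markers. Sequencing depth before scaling was not recomputed here. Each rat gives 1 library, so p-values measure the spread between rats.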

Additional observations from a re-analysis of the deposited data

Results flagged for a closer look

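In a group of 6 or 7 rats a value was set aside for a closer look when its gap to the nearest other rat took up most of the group's range (Dixon's criterion at 95%). Of 44 groups, the 2 ages for the 10 matrix genes and 12 related matrix genes, 3 met this, where chance gives about 1 in 20. *Lum* in rat 86 at 6 weeks had 5862 normalized counts, with 3118 in the nearest rat. *Vcan* in rat 81 at 10 weeks had 5220, with 3175 in the nearest rat. *Bcan* in rat 83 at 10 weeks had 12, with 6 in the nearest rat, a level at which single counts matter. Without rat 86, *Lum* was DE with a log2 fold change of 1.81.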

How the results depend on the processing

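No paired analysis was possible because the rats of both ages share no number. Under library size, median-ratio and upper quartile scaling, a pseudocount of 0.1, no filter, a minimum of 10 in every rat, limma-trend, sample quality weights, the rat set as a term, the larger rat set alone and each rat left out, 8 of the 10 matrix genes were called and higher within WOS. With quality weights the log2 fold change was 0.19 for *Dcn* and 0.45 for *Thbs2*, against 0.57 and 0.95. Among all genes, those called higher within and outside WOS numbered 1288 and 1093, against 3009 and 2638 with sample quality weights, 2003 and 1466 in the larger set, and 803 to 1461 and 608 to 1219 without single rats, the lowest without rat 70. Scaling moved the median of all genes by at most 0.046. With the fibroblast marker score as a covariate 4 were called and the median log2 fold change of the 10 genes was 0.97, with *Dcn* at -0.29 and *Thbs2* at -0.49; among related matrix genes 2 were called higher within WOS and 1 higher outside WOS. The rat set as a term, formed from the variation within the ages, gave 19 and 5 related genes. Calls over the whole table of 14790 genes rose as well, from 1288 and 1093 to 1760 and 1574. In the smaller set of 5 rats 0 of the 10 genes were called higher within WOS, and 0 and 0 related genes in the 2 directions, where limma called 0 of all genes and 1976 had an unadjusted p under 0.05. None of the 10 genes was called higher outside WOS in any of these fits. Among the related genes named, *Ogn* also lost its call with median-ratio scaling and with quality weights, and *Smoc2* in the larger set alone. The ratios between genes kept their side of the threshold with a pseudocount of 0.1 and without each rat, alternatives added after the data were seen. The cause of these shifts was not tested.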
